A study of Mus musculus with 8 samples.

Results

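The calmodulin-dependent kinases and the inhibitors of CaMKII were followed in mouse testis. The family was taken as 10 genes, found by symbol through their Ensembl identifiers: the inhibitors Camk2n1 and Camk2n2, the CaMKII subunits Camk2a, Camk2b, Camk2d and Camk2g, and Camk4, Camkk1, Camkk2 and Camk1d. Of these, 9 were among the 24988 genes measured, and all 9 passed the filter on low values. Camk2a was not analysed here. The family was chosen by the measured level of Camk2n1, which is higher in the libraries labelled knockout, so its difference between the groups is given as a description with no test. The other members were listed by name, and their differences were tested in a fit across all genes.

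Calmodulin-dependent kinases carry calcium signals: calmodulin binds calcium, and the complex switches the kinases on. CaMKII is built from subunits encoded by Camk2a, Camk2b, Camk2d and Camk2g, and it keeps part of its activity after a calcium pulse by phosphorylating itself. Camk2n1 and Camk2n2 encode small proteins that bind the active form of CaMKII and block it. In a separate cascade, the kinases encoded by Camkk1 and Camkk2 phosphorylate and activate the CaMKI and CaMKIV enzymes, here Camk1d and Camk4. Camk4 is known in male germ cells, where its gene also gives rise to calspermin, a calmodulin-binding protein that lacks the kinase domain, so a value per gene does not separate the kinase from calspermin.

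RNA of adult mouse testis was sequenced in 4 libraries labelled Kpna2-/- and 4 labelled WT, and no other allele, agent, strain or age is given by the labels. Kpna2 encodes an importin alpha, an adaptor for carrying proteins into the nucleus, and the comparison addresses which transcripts differ between these genotypes. The labels do not say that replicates are separate animals, and p-values therefore reflect the scatter of these 8 libraries alone, which may be technical. Levels are in CPM, the authors' reads per gene over a scaled library size. Differences are knockout label minus wild-type label in log2(CPM + 0.5), a scale that makes changes of low genes look smaller. A gene is said to have risen or fallen where limma gave an adjusted p under 0.05 over all 22027 tested genes.

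Depth was 31133443 to 37797812 reads per library. Kpna2 itself was not lower under the knockout label, with 15.3 to 21.7 CPM in the libraries labelled knockout, against 12.4 to 15.1 CPM in those labelled wild type, so every direction below is that of the label. Of 2960 different 50-base words in Kpna2 transcripts, 1852 (62.6%) also occur in transcripts of other genes, and 1824 of these lie in Gm10184, a gene chosen here after its values were seen. Gm10184 stood at 42.4 to 53.3 CPM in the libraries labelled knockout, against 80.3 to 95.2 CPM in those labelled wild type. How reads that match several places were counted is not given, so the values of Kpna2 do not settle the labels. Summed markers of matrix-producing fibroblasts were 45.5 to 85.2 CPM in the libraries labelled knockout, against 130.4 to 165 CPM in those labelled wild type, with 5 of 6 lower. Summed markers of peritubular myoid cells were 352 to 368 CPM under the knockout label, against 402 to 478 CPM under the wild-type label, with 4 of 7 lower. Those of endothelial cells were 24.0 to 29.8 CPM under the knockout label, against 30.6 to 34.8 CPM under the wild-type label, with 2 of 6 lower. No member of these 3 lists was higher or at 0. Over all tested genes limma called 8.32% lower and 8.62% higher. The sums of the other 7 lists overlapped between the groups. Those of elongating spermatids, the most abundant, were 21821 to 27430 CPM in libraries labelled knockout and 24137 to 25352 CPM in the others. Among these lists 4 of 8 Leydig cell genes fell and 1 rose. For Sertoli cells 2 of 9 fell, for spermatogonia 2 of 7 and for pachytene spermatocytes 1 of 7. None was called for macrophages, round spermatids or elongating spermatids. The part of these cell types in the results below was not tested, and in bulk tissue fewer cells of a type and less RNA per cell cannot be told apart.

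The coding sequences of the inhibitors are shown because the main difference lies in Camk2n1 and its relative Camk2n2 did not pass the test. Both are from GENCODE release M21 (GRCm38), 5′ to 3′, and capitals mark the bases that differ between them in a global alignment.
Camk2n1: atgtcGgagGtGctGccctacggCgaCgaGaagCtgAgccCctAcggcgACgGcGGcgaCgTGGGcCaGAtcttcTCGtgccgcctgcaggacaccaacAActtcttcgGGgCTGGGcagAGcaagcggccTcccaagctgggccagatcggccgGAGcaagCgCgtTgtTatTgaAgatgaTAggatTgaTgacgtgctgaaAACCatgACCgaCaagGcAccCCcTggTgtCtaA
Camk2n2: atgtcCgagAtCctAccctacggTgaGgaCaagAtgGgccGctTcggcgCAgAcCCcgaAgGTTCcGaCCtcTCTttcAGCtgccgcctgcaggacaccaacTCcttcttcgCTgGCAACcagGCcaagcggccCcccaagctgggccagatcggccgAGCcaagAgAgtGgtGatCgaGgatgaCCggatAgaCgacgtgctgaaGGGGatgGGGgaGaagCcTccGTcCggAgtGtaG
The reading frames hold 237 bases for Camk2n1 and 240 for Camk2n2, which encode 78 and 79 residues. Of 240 aligned positions 169 were identical (70.4%), and the longest identical stretch was 23 bases. No 50-base word of a Camk2n1 or Camk2n2 transcript occurred in the transcripts of any other gene on either strand. Differing bases were fewest in the middle of the frame and denser before it and at the 3′ end.

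Camk2n1 (ENSMUSG00000046447, protein-coding, plus strand, chr4:138454314-138460123 in GRCm38) was the member with the clearest difference. It had 156, 137, 169 and 180 CPM in knockout-labelled replicates 1 to 4, against 66.8, 70.4, 72.8 and 65.0 CPM in wild-type replicates 1 to 4. Every library labelled knockout lay far above every library labelled wild type, and replicate 2 was the lowest of the higher group. The means were 160 ± 18.4 CPM under the knockout label and 68.7 ± 3.52 CPM under the wild-type label (SD, n = 4 each), a ratio of 2.33 and a log2 fold change of 1.21. Between 4786 and 6176 reads per library stood behind the values under the knockout label, against 2252 to 2479 reads under the wild-type label. The coefficient of variation was 11.5% in the libraries labelled knockout and 5.13% in those labelled wild type, where counting alone would give 1.36% and 2.04%. With any 1 library left out, the log2 fold change lay between 1.15 and 1.28.

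Camk2n2 (ENSMUSG00000051146, minus strand, chr16:20619215-20621287 in GRCm38), the other inhibitor, stood at 15.8, 13.6, 16.0 and 15.0 CPM in the libraries labelled knockout, against 13.5, 14.1, 14.1 and 10.6 CPM in those labelled wild type. The groups overlapped: replicate 2 of the knockout label lay below 2 libraries labelled wild type. The log2 fold change was 0.21 (95% interval 0.00051 to 0.41), with a limma adjusted p of 0.16.

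**Figure D1:**
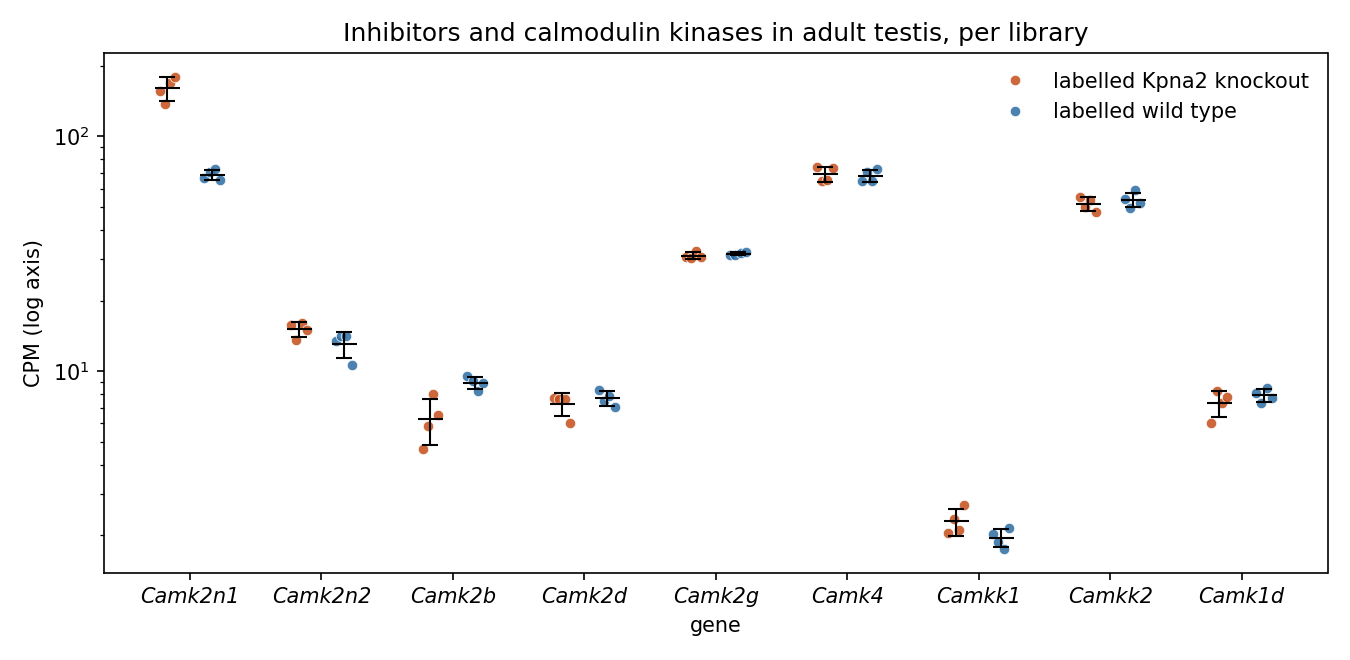
CPM on a log axis for the 9 measured genes, with 1 point per library, the mean as a horizontal mark and the SD as error bars (n = 4 per group). Camk2n1 at 137 to 180 CPM under the knockout label stands clear of 65.0 to 72.8 CPM under the wild-type label, Camk2b is lower without overlap, and the other 7 genes overlap between the groups.

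Among the CaMKII subunits, Camk2b fell and Camk2d and Camk2g did not pass the test. Camk2b (ENSMUSG00000057897, minus strand, chr11:5969644-6066362 in GRCm38) had 4.67, 5.84, 8.01 and 6.52 CPM in knockout-labelled replicates 1 to 4, against 9.52, 9.07, 8.24 and 8.88 CPM in the libraries labelled wild type. The groups did not overlap, but replicate 3 of the knockout label came close to the lowest library labelled wild type, and the spread was wider under the knockout label (SD 1.39 CPM, against 0.532 CPM under the wild-type label). The means were 6.26 CPM under the knockout label and 8.93 CPM under the wild-type label, a log2 fold change of -0.50 (SE 0.13, 95% interval -0.78 to -0.22, limma adjusted p = 0.016). Without wild-type replicate 1 the limma adjusted p was 0.051, and with any 1 library left out the log2 fold change ranged from -0.62 to -0.38. Replicate 1 of the knockout label, the lowest for Camk2b, stood apart in several marker sums. Its sums were the lowest of all 8 libraries for Leydig cells (687 CPM), macrophages (65.8 CPM), round spermatids (3693 CPM) and elongating spermatids (21821 CPM). Its sum for pachytene spermatocytes (2299 CPM) was the highest of the 8. The other 7 libraries lay at 875 to 1248 CPM for Leydig cells and 4256 to 4608 CPM for round spermatids. The part of these cells in its Camk2b value was not tested. Without that library Camk2b still fell, by 0.38 on the log2 scale (limma adjusted p = 0.034). Replicate 4 of the knockout label stood apart as well. Its sums were the lowest of the 8 for Sertoli cells (857 CPM), peritubular myoid cells (352 CPM), fibroblasts (45.5 CPM) and endothelial cells (24.0 CPM). They were the highest for round (4608 CPM) and elongating spermatids (27430 CPM). Without replicate 4 the log2 fold change of Camk2b was -0.53 (limma adjusted p = 0.027), and the part of these cells was not tested.

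Camk2g (ENSMUSG00000021820, minus strand, chr14:20734875-20794088 in GRCm38), the most abundant CaMKII subunit measured per length, had 30.7, 30.2, 32.6 and 30.8 CPM in the libraries labelled knockout, against 31.4, 31.2, 31.8 and 32.3 CPM in those labelled wild type. It was the steadiest gene of the family, with a coefficient of variation of 3.38% under the knockout label and 1.59% under the wild-type label, where counting gives 3.10% and 3.01% for the same groups. Its log2 fold change was -0.03 (95% interval -0.14 to 0.09, limma adjusted p = 0.78). Camk2d (ENSMUSG00000053819, plus strand, chr3:126596302-126846326 in GRCm38) had 7.71, 7.64, 7.65 and 6.02 CPM in the libraries labelled knockout, against 8.34, 7.48, 7.85 and 7.02 CPM in those labelled wild type. The lowest value is that of knockout-labelled replicate 4, and the groups overlapped. Its log2 fold change was -0.08 (95% interval -0.30 to 0.14, limma adjusted p = 0.65).

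The coding sequences of these 3 kinases are related but distinct. Camk2b and Camk2d were identical at 77.8% of 1539 compared bases, Camk2b and Camk2g at 77.0% of 1696 and Camk2d and Camk2g at 76.1% of 1533. The longest stretch shared without a mismatch is shown for each pair, since it limits how far a short read could fit more than 1 of the genes.
Camk2b and Camk2d: tacagtgaagctgatgccagtca
Camk2b and Camk2g: agagagtactacagtgaagctgatgccag
Camk2d and Camk2g: atcaacaatggggactttgaggc
These runs are 23, 29 and 23 bases long, and the first and the second hold a common stretch of letters. No 50-base word of Camk2d or Camk2g transcripts occurred in another gene. Of those of Camk2b, 0.159% did, none of them in a CaM kinase gene.

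Camk4 and its activating kinases did not pass the test. Camk4 (ENSMUSG00000038128, plus strand, chr18:32934931-33191228 in GRCm38) had 73.7, 64.5, 65.0 and 73.5 CPM in the libraries labelled knockout, against 64.4, 70.2, 64.9 and 72.4 CPM in those labelled wild type. The ranges almost coincide, and the log2 fold change was 0.02 (95% interval -0.11 to 0.16, limma adjusted p = 0.84). An antisense gene, 2310026I22Rik, shares 72 bases of exon with Camk4 (2.21% of its exon length) and stood at 4.38 ± 0.922 and 3.25 ± 0.344 CPM under the knockout and the wild-type label. The strand setting of the counting is not given, so reads in this overlap cannot be assigned.

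Camkk2 (ENSMUSG00000029471, minus strand, chr5:122731170-122779409 in GRCm38), a kinase that also activates AMP-activated kinase, had 55.3, 49.9, 53.8 and 47.6 CPM in the libraries labelled knockout, against 53.9, 49.8, 58.9 and 52.3 CPM in those labelled wild type. The groups overlapped, with a log2 fold change of -0.06 (95% interval -0.20 to 0.08, limma adjusted p = 0.62). Camkk1 (ENSMUSG00000020785, plus strand, chr11:73019008-73042073 in GRCm38) had the fewest reads of the family, 65 to 93 per library labelled knockout and 58 to 82 per library labelled wild type. It stood at 2.04, 2.35, 2.10 and 2.71 CPM under the knockout label, against 2.02, 1.88, 1.75 and 2.15 CPM under the wild-type label. The groups overlapped, and its spread was close to counting error (coefficient of variation 13.1% under the knockout label and 8.84% under the wild-type label, with 11.4% and 12.1% from counting). Its log2 fold change was 0.19 (95% interval -0.07 to 0.45, limma adjusted p = 0.33). Camk1d (ENSMUSG00000039145, minus strand, chr2:5293457-5714515 in GRCm38), a CaMKI enzyme, had 6.01, 8.21, 7.33 and 7.74 CPM in the libraries labelled knockout, against 8.07, 7.31, 8.48 and 7.70 CPM in those labelled wild type. These also overlapped (log2 fold change -0.11, 95% interval -0.33 to 0.11, limma adjusted p = 0.53).

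**Figure D2:**
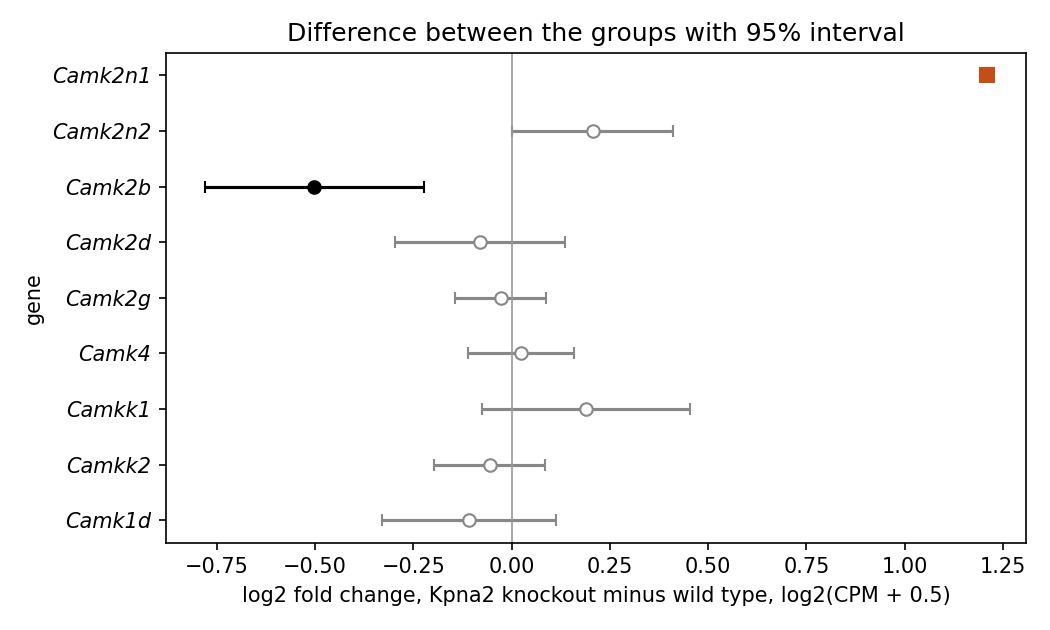
Log2 fold change of each gene on the scale of log2(CPM + 0.5), knockout label minus wild-type label; the bars are 95% intervals, filled circles passed the test, open circles did not, and the square for Camk2n1 is a description without an interval. Camk2n1 lies at 1.21 and Camk2b at -0.50, and the other 7 genes lie between -0.11 and 0.21.

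Counted over the members other than Camk2n1, 1 of 8 passed the test, and it was lower. Over all tested genes limma called 16.9%, made up of 8.62% higher and 8.32% lower, so 1 call among 8 genes is near the background. Among the same 8 members the groups did not overlap for Camk2b alone, where 20.9% of all tested genes showed no overlap (10.1% higher and 10.7% lower).

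Levels can be compared between genes only per length, here as CPM per kilobase of merged exons in GENCODE M21. In the libraries labelled knockout Camk2n1 was first with 36.1 ± 4.14 CPM per kilobase, then Camk4 with 21.2 ± 1.56 and Camk2n2 with 11.7 ± 0.842. In the libraries labelled wild type Camk4 was first with 20.9 ± 1.21 CPM per kilobase, then Camk2n1 with 15.5 ± 0.793 and Camk2n2 with 10.1 ± 1.28. Camk2n1 and Camk4 thus stood in the opposite order under the 2 labels, with no overlap between them in either. Ranked among genes with a known exon length, Camk2n1 was at percentile 90.3 under the knockout label and 80.7 under the wild-type label. Its order and percentile restate the difference for which Camk2n1 was chosen. Camk2g and Camkk2 followed at 4.85 ± 0.164 and 4.73 ± 0.321 CPM per kilobase under the knockout label, against 4.95 ± 0.0788 and 4.92 ± 0.354 under the wild-type label, and their ranges overlapped at this length. Camk1d, Camk2b, Camkk1 and Camk2d were the lowest, with means of 0.986, 0.686, 0.617 and 0.323 CPM per kilobase under the knockout label and 1.06, 0.979, 0.523 and 0.341 under the wild-type label. At this length Camk2b overlapped Camk1d and Camkk1 under the knockout label and Camk1d alone under the wild-type label. The order below Camk2n1 and Camk4 depended on the length used. With the longest coding transcript in its place, Camkk2 averaged 10.6 ± 0.722 CPM per kilobase under the knockout label and 11.1 ± 0.796 under the wild-type label, above Camk2g at 8.39 ± 0.283 and 8.55 ± 0.136, with no overlap between these genes. Camkk2 then also stood above Camk2n2 under the wild-type label, with overlapping ranges. Camk2b and Camk2d then stood above Camk1d on average. The means were 1.56, 1.31 and 1.05 CPM per kilobase under the knockout label and 2.22, 1.39 and 1.13 under the wild-type label. The ranges of Camk2b, Camk2d and Camk1d overlapped under the knockout label and lay apart under the wild-type label. Camkk1 was the lowest. Camk2n1 and Camk4 kept their opposite order under the labels.

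The inhibitors were summed and set against the 3 CaMKII subunits measured, also per length. Camk2n1 and Camk2n2 together came to 47.3, 41.4, 50.4 and 52.1 CPM per kilobase in the libraries labelled knockout, against 25.5, 26.8, 27.3 and 22.9 in those labelled wild type. Camk2b, Camk2d and Camk2g together came to 5.65, 5.70, 6.31 and 5.79 CPM per kilobase in the libraries labelled knockout, against 6.31, 6.20, 6.23 and 6.33 in those labelled wild type. The inhibitor sums did not overlap between the groups, while 1 kinase sum under the knockout label reached the range of the wild-type label. The ratio of inhibitor to kinase transcripts was 8.15 ± 0.732 in the libraries labelled knockout and 4.09 ± 0.353 in those labelled wild type (SD, n = 4 each). The inhibitor sum and the ratio contain Camk2n1, which was chosen for its difference, and are descriptions of transcript levels. The ratio also depends on the length used: with the longest coding transcript of each gene it was 4.25 ± 0.406 and 2.11 ± 0.178 under the knockout and the wild-type label, while the ratio between the groups was 2.02 in place of 1.99.

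Within the inhibitors, Camk2n1 made up 74.2% to 77.7% of the summed level under the knockout label, against 59.0% to 63.9% under the wild-type label. This share restates the difference for which Camk2n1 was chosen and is a description. Within the 3 kinases, Camk2g made up 80.7% to 84.9% under the knockout label, against 77.6% to 79.9% under the wild-type label. Shares of a sum are linked, so a lower share of Camk2b goes with a higher share of the rest. Camk2g itself did not pass the test (log2 fold change -0.03, limma adjusted p = 0.78). The share of Camk2b was 9.06%, 11.2%, 13.9% and 12.3% in knockout-labelled replicates 1 to 4, against 16.5%, 16.0%, 14.5% and 15.4% in the libraries labelled wild type, with no overlap. The share of Camk2d was 4.63% to 6.07% under the knockout label and 4.93% to 5.87% under the wild-type label, which overlap. These shares also depend on the length: with the longest coding transcript Camk2d held 11.7% ± 1.35 under the knockout label and 11.4% ± 0.776 under the wild-type label, Camk2b 13.7% ± 2.39 and 18.2% ± 0.958, and Camk2g 74.6% ± 1.77 and 70.3% ± 1.33 (SD, n = 4 each).

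**Figure D3:**
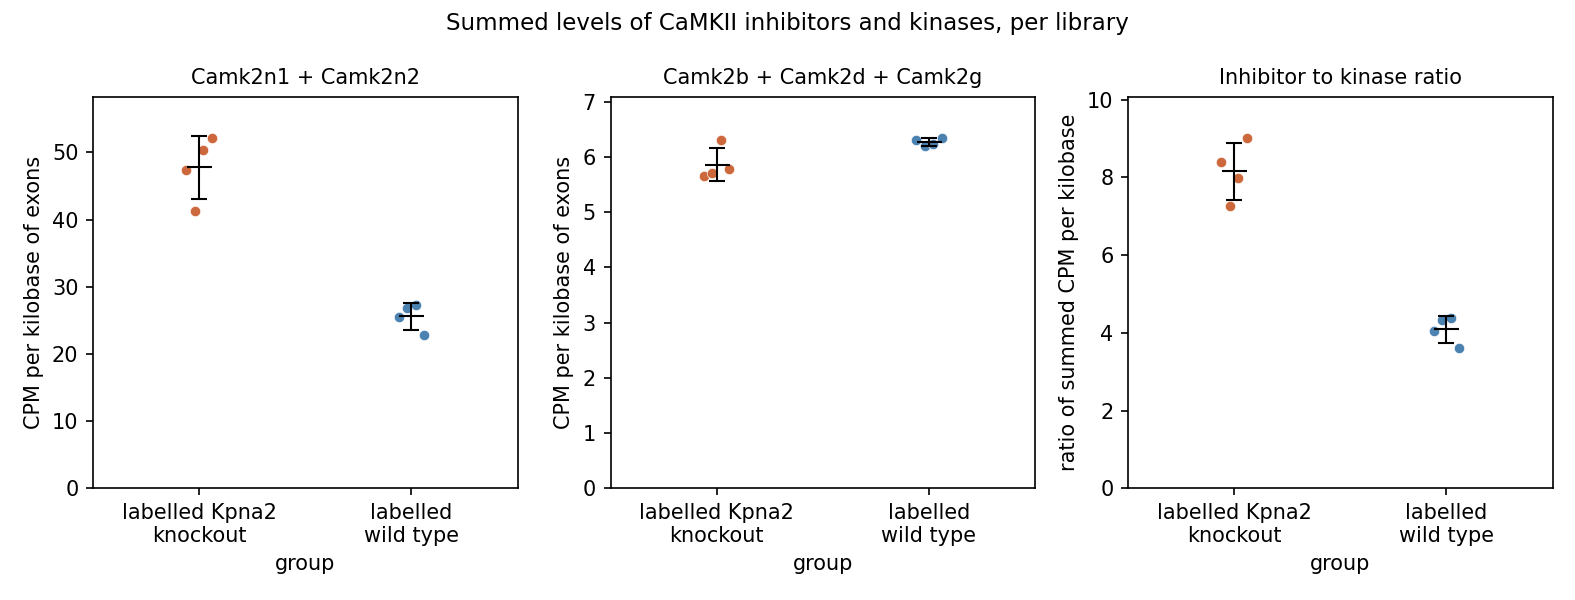
Summed CPM per kilobase of exons of the inhibitors (left) and of the 3 CaMKII subunits measured (middle), and the ratio of the sums (right), with 1 point per library and the mean and SD (n = 4 per group) on axes that start at 0. The inhibitor sum is 41.4 to 52.1 under the knockout label against 22.9 to 27.3 under the wild-type label. Kinase sums lie between 5.65 and 6.33 over all 8 libraries.

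The genes nearest to Camk2n1 were examined as its surroundings in GRCm38. Of the 3 nearest genes of the table on each side, 3 of 6 rose and none fell, where 8.62% of all tested genes were called higher and 8.32% lower, and none of the 6 differed as much as Camk2n1. Mul1, a mitochondrial ubiquitin ligase gene whose end lies 12.05 kb away, stood at 98.7 ± 3.73 CPM in the libraries labelled knockout and 87.7 ± 1.93 CPM in those labelled wild type (log2 fold change 0.17, limma adjusted p = 0.025). This call was lost in 7 of 17 alternatives, with a limma adjusted p of 0.051 to 0.075 without knockout-labelled replicate 3 or 4 or any 1 library labelled wild type. Ubxn10, a UBX-domain gene at 249.7 kb, rose to 356 ± 12.4 CPM under the knockout label, against 266 ± 10.9 CPM under the wild-type label (log2 fold change 0.42, limma adjusted p = 3.3e-05). Pla2g2c, a phospholipase gene at 265 kb, rose to 84.0 ± 5.48 CPM under the knockout label, against 66.8 ± 4.46 CPM under the wild-type label (log2 fold change 0.33, limma adjusted p = 0.0025). The spans of Ubxn10 (minus strand, chr4:138709837-138737167) and Pla2g2c (plus strand, chr4:138724792-138746132) overlap. The strand setting of the counting is not given and shared exon bases were not examined, so their calls may not be separate. Pink1, a kinase gene of mitochondrial quality control, stood at 235 ± 11.9 and 224 ± 7.87 CPM, Ddost, of the protein glycosylation complex, at 114 ± 1.30 and 112 ± 7.02 CPM, and Vwa5b1 at 88.4 ± 11.8 and 94.6 ± 5.51 CPM under the knockout and the wild-type label. Their limma adjusted p-values were 0.39, 0.76 and 0.41, and without knockout-labelled replicate 1 Vwa5b1 fell by 0.19 on the log2 scale (limma adjusted p = 0.037).

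The 5 genes with the profile most like that of Camk2n1 over the 8 libraries were taken by the root mean square difference of log2 values centred on each gene's mean, among 13358 other genes with at least 5 CPM. They were 1700125G22Rik, a long intergenic RNA gene, with a difference of 0.10, the antisense gene Slfn5os with 0.14, Tspan18, a tetraspanin gene, with 0.16, the orphan nuclear receptor gene Esrrb with 0.16 and the pseudogene Rpl3-ps2 with 0.17. None lies on chromosome 4 with Camk2n1. Esrrb stood at 12.2 ± 0.832 CPM in the libraries labelled knockout and 5.41 ± 0.515 CPM in those labelled wild type, and Tspan18 at 16.5 ± 1.38 CPM under the knockout label and 7.81 ± 0.504 CPM under the wild-type label. All 5 were chosen for sharing the difference of Camk2n1 and have no test here.

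**Figure D4:**
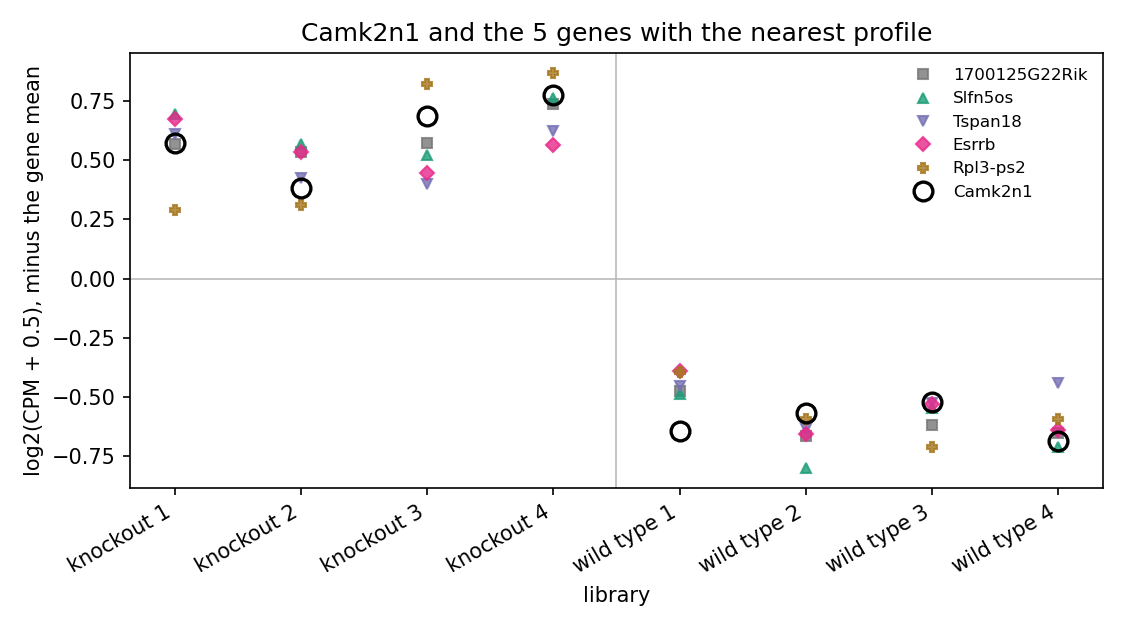
Log2(CPM + 0.5) minus the gene's mean over the 8 libraries, for Camk2n1 (open circles) and the 5 genes with the nearest profile, with the libraries labelled knockout on the left and those labelled wild type on the right. All 6 genes are above 0 in the 4 libraries labelled knockout and below 0 in the 4 labelled wild type.

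The genes around the kinases were taken in lists by role. Of 7 tested genes of calmodulin and calmodulin-binding buffers, 1 rose and none fell, where 16.9% of all tested genes were called in either direction, with a median log2 fold change of -0.04 against -0.01 over all tested genes. The calmodulin genes Calm2 and Calm3 did not pass the test: Calm2 stood at 447 ± 35.5 and 459 ± 19.0 CPM and Calm3 at 578 ± 30.5 and 566 ± 25.9 CPM under the knockout and the wild-type label (limma adjusted p = 0.70 and 0.74). Calml4, a calmodulin-like gene, rose to 7.69 ± 0.934 CPM under the knockout label, against 5.82 ± 0.541 CPM under the wild-type label (limma adjusted p = 0.027), a call lost without knockout-labelled replicate 3 or 4 or wild-type replicate 1 or 3 (limma adjusted p = 0.072 to 0.080).

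Of 16 tested genes of other calmodulin-dependent and related kinases, 1 rose and 2 fell, near the 16.9% called over all genes, with a median of -0.05. Dapk2, a death-associated protein kinase, was at 2.38 ± 0.798 CPM under the knockout label and 0.997 ± 0.150 CPM under the wild-type label, a log2 fold change of 0.91 (limma adjusted p = 0.0039). Camk1, the founding CaMKI gene, fell to 2.31 ± 0.170 CPM under the knockout label, against 3.68 ± 0.379 CPM under the wild-type label (log2 fold change -0.57, limma adjusted p = 0.0033). Mylk3, a myosin light chain kinase of heart muscle, fell to 1.52 ± 0.157 CPM under the knockout label, against 2.46 ± 0.258 CPM under the wild-type label (limma adjusted p = 0.0065). All 3 are low in this tissue. With a filter at 2 CPM, which leaves out Dapk2 and Mylk3, 1 gene of this list was called.

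Of 13 genes of calcineurin, the calcium-dependent phosphatase, its regulators and the phosphatases of CaM kinases, 1 rose and 4 fell, with a median of -0.07. This is 5 of 13, where 16.9% of all genes were called. Ppp3ca, a catalytic subunit of calcineurin, fell to 105 ± 7.20 CPM under the knockout label, against 130.4 ± 6.25 CPM under the wild-type label (log2 fold change -0.32, limma adjusted p = 0.0017). Rcan3 and Rcan2, regulators that bind calcineurin, fell to 3.29 ± 0.374 and 1.17 ± 0.262 CPM under the knockout label, against 5.13 ± 0.554 and 1.99 ± 0.111 CPM under the wild-type label (limma adjusted p = 0.0034 and 0.0088). Ppm1e, a phosphatase of CaM kinases named outside the rule as the fourth gene that fell, was at 11.6 ± 0.186 CPM under the knockout label and 14.9 ± 1.55 CPM under the wild-type label (limma adjusted p = 0.012). Chp1, a calcineurin-like calcium-binding protein gene, rose to 28.6 ± 0.372 CPM under the knockout label, against 24.9 ± 0.973 CPM under the wild-type label (limma adjusted p = 0.031). Chp1 was not called in 7 of 17 alternatives, with a limma adjusted p of 0.056 to 0.094 without knockout-labelled replicate 2, 3 or 4 or wild-type replicate 1, 2 or 3. The testis forms Ppp3cc and Ppp3r2 stood at 187 ± 3.98 and 468 ± 25.2 CPM under the knockout label, against 190 ± 9.19 and 504 ± 6.24 CPM under the wild-type label (limma adjusted p = 0.84 and 0.15).

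Downstream, CaMKIV and CaMKII act on CREB-family factors and on the histone deacetylases that bind MEF2. The list held 16 genes of CREB-family factors, their coactivators, MEF2 factors and these deacetylases. Of these 16, 1 rose and 2 fell, near the 16.9% called over all genes, with a median of 0.01. Hdac5 fell to 48.2 ± 3.82 CPM under the knockout label, against 59.1 ± 2.41 CPM under the wild-type label (limma adjusted p = 0.0049). Mef2d fell to 20.3 ± 2.06 CPM under the knockout label, against 24.1 ± 1.05 CPM under the wild-type label (limma adjusted p = 0.042). Hdac7 rose to 5.38 ± 0.678 CPM under the knockout label, against 3.66 ± 0.737 CPM under the wild-type label (limma adjusted p = 0.020). Hdac7 was not called without knockout-labelled replicate 3 or wild-type replicate 2 or 4 (limma adjusted p = 0.057 to 0.066). Mef2d was lost in 8 of 17 alternatives, with a limma adjusted p of 0.050 to 0.12 without knockout-labelled replicate 2 or 4 or any 1 library labelled wild type and 0.054 with quantile normalization. Crem, which encodes a CREB relative that drives spermatid genes, stood at 196 ± 16.6 and 206 ± 9.63 CPM and its coactivator gene Fhl5 at 235 ± 21.3 and 226 ± 24.1 CPM under the knockout and the wild-type label (limma adjusted p = 0.48 and 0.64).

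None of the 11 tested genes of AMP-activated kinase, a target of Camkk2, and of its other activator Stk11 was called by limma, nor by edgeR. Over all tested genes limma called 16.9%. In this list 3 genes had an unadjusted limma p under 0.05, as did 6653 of all 22027 tested genes. DESeq2 called 1 gene of the list, which was higher. Without knockout-labelled replicate 1 limma called 1, which was lower. Of 20 genes of calcium release, entry and pumps, 1 rose and 3 fell, near the 16.9% called over all genes, with a median of 0.01. Itpr3, a receptor that releases stored calcium, rose to 45.3 ± 3.82 CPM under the knockout label, against 35.6 ± 5.67 CPM under the wild-type label (limma adjusted p = 0.025), a call lost without knockout-labelled replicate 1 or wild-type replicate 1 or 3 (limma adjusted p = 0.060 to 0.064). Ryr3, the ryanodine receptor of many non-muscle tissues, fell to 13.2 ± 1.35 CPM under the knockout label, against 17.1 ± 1.13 CPM under the wild-type label (limma adjusted p = 0.0097). The pump genes Atp2c1 and Atp2b1 fell to 43.6 ± 1.01 and 16.5 ± 1.14 CPM under the knockout label, against 51.3 ± 4.90 and 19.5 ± 1.07 CPM under the wild-type label (limma adjusted p = 0.029 and 0.038). Atp2c1 was not called without knockout-labelled replicate 3 or 4 or wild-type replicate 2 or 4 (limma adjusted p = 0.057 to 0.071). Atp2b1 was not called in 7 of 17 alternatives, with a limma adjusted p of 0.078 to 0.11 without knockout-labelled replicate 3 or 4 or wild-type replicate 1, 3 or 4 and 0.061 with quantile normalization.

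**Figure D5:**
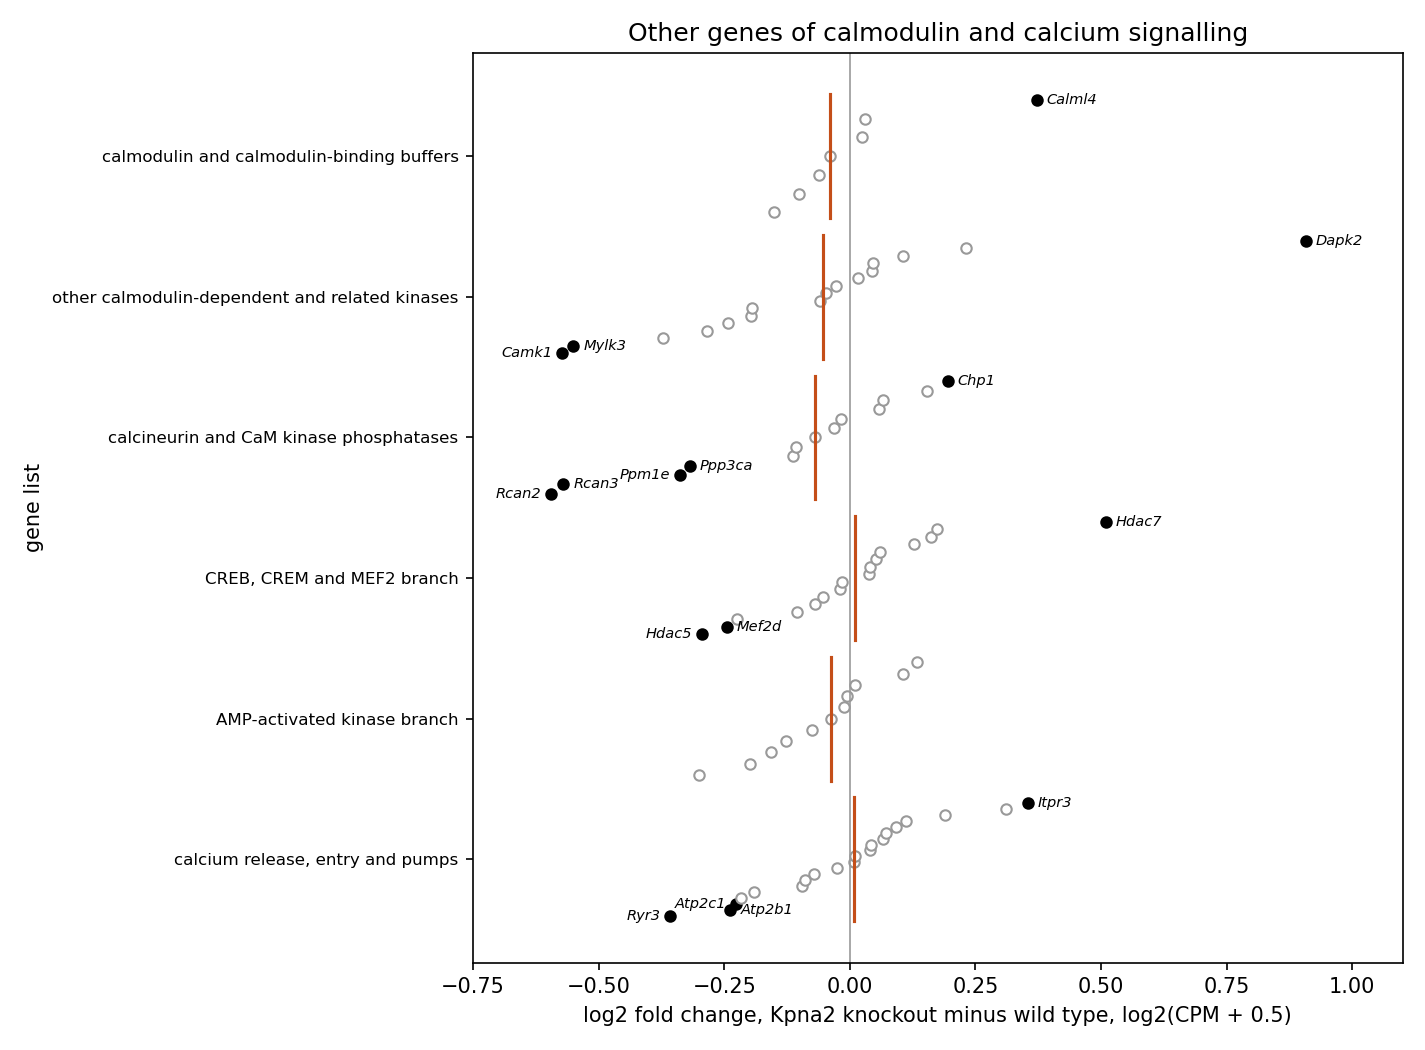
Log2 fold change of each tested gene in 6 lists of calmodulin and calcium signalling on the scale of log2(CPM + 0.5), knockout label minus wild-type label; filled and named points passed the test, open points did not, and the vertical bars are list medians. Medians lie between -0.07 and 0.01, and the point farthest to the right is Dapk2 at 0.91.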

How the data were processed

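Total RNA (TRIzol, DNase) went into TruSeq libraries, per the labels' protocols. Trimmomatic, Subread, featureCounts and GRCm39 (mm39) are named in the submitters' processing notes, while versions, annotation, strand setting and the treatment of reads with several matches are not given. The authors deposited 1 table of 24988 genes as a scaled signal whose header names no unit. It is read here as CPM, from its name and its column sums of 990244 to 1025490. Its columns kpn and control, numbered 1 to 4, were taken as the knockout and wild-type titles of the same number. All values (100%, within 0.01) came out as whole reads once divided by the worth of 1 read in their column.

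limma 3.58.1 (R 4.3.3), with a trend in the variance, was fitted to log2(CPM + 0.5) of the 22027 genes averaging 0.5 CPM or more over 8 libraries, with Benjamini-Hochberg adjustment. edgeR 4.0.16 on the recovered reads called 3694 genes, and DESeq2 1.42.0 was a further alternative. The fits were tested on simulated counts drawn with means and dispersions taken from these libraries. Those counts held no difference in batch or cell types, so the simulation does not bear on the calls given here. A gene name table gave symbols for 24890 identifiers, and GENCODE M21 (GRCm38, not the build the authors name) gave lengths and positions. No replicate pair agreed within sampling noise (chi-square per degree of freedom 4.73 to 12.1). Members and lists were chosen with earlier results of these data known. The rule for named genes took the members, Kpna2, up to 3 called genes per direction of each list by p, the 5 nearest profiles and 3 neighbours of Camk2n1 on each side. Calm2, Calm3, Crem, Fhl5, Ppp3cc and Ppp3r2 were named after their values were seen. Counting errors take reads as independent molecules.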

Additional observations from a re-analysis of the deposited data

Results flagged for a closer look

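Camk2d in knockout-labelled replicate 4 stood apart from its group. It had 6.02 CPM, while the 3 remaining libraries with that label lay between 7.64 and 7.71 CPM. The gap made up 0.959 of the group's range, above Dixon's critical value. It was the only such case among 18 groups of 4 values, and chance gives about 1 in 20. Without this library the log2 fold change of Camk2d was 0.0012 in place of -0.08.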

How the results depend on the processing

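Over 17 alternatives, the number of genes called lay between 2791 and 4073, against 3731, and Camk2n1 stayed between 1.15 and 1.28 on the log2 scale. Camk2b kept its direction in all 17, and its call was lost without wild-type replicate 1. The number of members called was then 1 in place of 2, a count that includes Camk2n1, which was chosen for its difference and adds no support. With 1 library left out, log2 fold changes lay between -0.12 and 0.0012 for Camk2d, -0.0069 and 0.057 for Camk4, -0.62 and -0.38 for Camk2b and -0.0092 and 0.063 for the neighbour Ddost, so that of these Camk2d, Camk4 and Ddost changed sign without ever being called. Calls then lay between 0 and 1 for calmodulin and its buffers, 1 and 3 for the CREB, CREM and MEF2 branch, 0 and 1 for the AMP-activated kinase branch and 2 and 4 for calcium release, entry and pumps. The AMP-activated kinase branch had 1 call with quantile normalization and 1 with DESeq2, and the list of other kinases had 1 with a filter at 2 CPM. No shared deviation of same-numbered libraries of the groups was seen (correlations -0.03 to 0.04, against -0.06 to 0.07 for pairs of different numbers). This does not settle whether the numbers pair the libraries. With the replicate block 3446 genes were called, the adjusted p of Camk2b was 0.022 in limma, and the calls of Chp1, Mef2d, Atp2b1 and Mul1 were lost (0.066, 0.064, 0.062 and 0.057). Median ratio scaling and quantile normalization moved the median of all genes by 0.0050 and 0.0053. The length used per gene, chosen as an alternative after seeing the data, set the inhibitor to kinase ratio at 4.25 and 2.11 in place of 8.15 and 4.09 under the knockout and the wild-type label. The shares of Camk2b, Camk2d and Camk2g among the kinases moved with this length as well. Among the members Camkk1 had the fewest reads, 58 to 93 per library, and some other genes named had fewer, such as Dapk2 with 29 to 44 reads in libraries labelled wild type and Rcan2 with 29 to 45 in those labelled knockout.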
